A study of Mus musculus with 4 samples.

Results

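The genes described here are 46 mouse genes of the interferon response and of antigen presentation, chosen by symbol and followed through kidney nuclei. Of the 46, 44 were listed in a table of 17 nucleus clusters that held 24468 genes, and 43 in a table of proximal tubule pools that held 21312. The antiviral GTPase genes Mx1 and Mx2 were in neither table, and the sensor gene Zbp1 was absent from the pools. By role they comprised 4 signal and transcription factors, 6 nucleic acid sensors, 18 interferon-induced effectors (16 without Mx1 and Mx2), 7 interferon-inducible GTPases, 6 genes of MHC class I presentation and 5 of MHC class II presentation.

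Single-nucleus RNA sequencing was performed on cortex with outer medulla from male C57BL/6 mice. The group Cis9w received 8 mg/kg cisplatin, a platinum drug toxic to the proximal tubule, in 4 injections given a week apart, with kidneys collected at week 9 counted from the first dose. The group CT9w was untreated. Each group had 2 samples, but no column of either table is tied to 1 of them, and a spread over replicates is therefore not available. Descriptions of the replicate 1 samples name the pool table and those of replicate 2 the cluster table, but the sources used here do not say which nuclei entered each.

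Interferons are secreted proteins that bind receptors on almost every cell, and the signal is carried to the nucleus by STAT proteins together with interferon regulatory factors. A short response element lies in the promoters of many induced genes, whose products sense foreign nucleic acid, block viral replication or attack vacuoles that hold microbes. Interferon gamma also raises MHC class I, which displays peptides on nearly all nucleated cells, and MHC class II, whose main carriers are dendritic cells, macrophages and B cells.

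RNA was counted as unique molecular identifiers (UMIs), 1 per captured molecule. The authors' averages, in normalised UMIs per nucleus, were used as levels, and the UMI sums behind them were recovered. The CT9w pool held 5123727 UMIs and the Cis9w pool 8557662, and the clusters held from 254460 (mixed-2) to 7425098 (PT-S2/S3). Ratios of averages carry 95% intervals from the UMI sums (Clopper-Pearson), which cover counting error only, not the variation of nuclei or of animals. The cluster names are the authors', with EC1 and EC2 for endothelial nuclei, PT for proximal tubule, TAL for thick ascending limb and IC for intercalated cells. The endothelial gene Flt1 averaged 5.04 in EC1 and 6.55 in EC2 and at most 0.406 in the other 15 clusters, and the leukocyte gene Ptprc averaged 3.42 in Immune cells and at most 0.103 elsewhere. Slc12a1, a thick ascending limb gene, averaged 2.93 in mixed-2 and 2.23 in PT-S3-1, while the remaining proximal tubule clusters lay between 0.243 and 0.761.

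Many of these genes share short promoter motifs through which interferon or class II signals are read, so promoter sequence is shown first. RefSeq promoters (GRCm38.p6, 250 bases before to 50 after the start) were matched for 33 of the 46 genes. The core of the interferon-stimulated response element, GAAA, then NN for any bases, then GAAA, on either strand, was present in 16 of the 33 (48.5%), against 3.99% of 27025 promoters of all genes. All 6 matched GTPase promoters held it (Gbp2, Gbp3, Gbp7, Igtp, Irgm1 and Irgm2), as did 6 of 12 effector promoters and 2 of 3 sensor promoters. The STAT core TTCNNNGAA was present in 8 of 33 (24.2%), against 9.55% of all promoters. The Y box, CTGATTGG on either strand, which is part of the conserved control region of MHC genes, was present in 6 of 33 (18.2%), against 4.70%. Its carriers were H2-K1, H2-D1, Tap1, Psmb9, H2-Aa and H2-Eb1, and the windows of Tap1 and Psmb9 overlap, so their match is 1 shared site.

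Stretches of 30 bases around the response element core, in capitals, are given for 8 members of 5 roles, 5' to 3' on the gene's strand. Members with and without the core are compared by their endothelial share further below.
Stat2 (chr10:128270266-128270295, plus strand): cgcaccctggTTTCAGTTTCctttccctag
Rsad2 (chr12:26456553-26456582, minus strand): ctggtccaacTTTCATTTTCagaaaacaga
Ifit1 (chr19:34640794-34640823, plus strand): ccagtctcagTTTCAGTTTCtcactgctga
Ddx60 (chr8:61928024-61928053, plus strand): gtgatgaatgGAAACCGAAActtaaagctt
Gbp2 (chr3:142620594-142620623, plus strand): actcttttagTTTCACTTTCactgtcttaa
Igtp (chr11:58199512-58199541, plus strand): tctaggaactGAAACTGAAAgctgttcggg
Irgm2 (chr11:58214903-58214932, plus strand): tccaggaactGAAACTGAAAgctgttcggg
B2m (chr2:122147538-122147567, plus strand): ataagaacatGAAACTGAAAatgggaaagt
Capitals that begin with TTTC hold the core on the opposite strand. The core began 120 bases before the start of Rsad2, 53 before that of Ddx60, 34 before that of Igtp and 64 before that of Irgm2. A match describes the letters and is no evidence that a factor was bound.

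The Y box is shown in capitals for 4 genes of antigen presentation, roles whose summed levels were highest in immune nuclei, though H2-D1 itself was highest in EC2.
H2-D1 (chr17:35263030-35263059, plus strand): gattccaggagCCAATCAGcgtcgccgcgg
Tap1 (chr17:34187323-34187352, plus strand): ggctcggctttCCAATCAGcggctgcgcgc
H2-Aa (chr17:34287856-34287885, minus strand): aagagaattttCTGATTGGttctggcgagt
H2-Eb1 (chr17:34305794-34305823, plus strand): ctcctttgatgCTGATTGGctcccagcact
In H2-Aa the Y box began 51 bases before the start and in H2-Eb1 62 bases before it. Capitals that begin with CCAAT hold it on the opposite strand, and here too a match describes the letters only.

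Across the kidney, most interferon-response genes were highest in endothelial nuclei, though many did not differ there from immune nuclei beyond counting error. The class II genes were highest in immune nuclei. Of 44 members, 22 were highest in EC2 and 3 in EC1, 17 in Immune cells, 1 in Mixed-1 (Ifitm3, a membrane protein gene that blocks virus entry) and 1 in PT-injury/repair (Samd9l, an interferon-induced gene that restrains poxviruses). The last 2 did not lead beyond counting error, with Ifitm3 at 1.10 (0.639 to 1.95) over EC1 and Samd9l at 1.08 (0.810 to 1.46) over Immune cells. Among 24119 genes with at least 1 UMI, 13.1% were highest in EC1 or EC2 and 14.7% in Immune cells. Of the UMIs of the 17 clusters, 4.29% lay in EC1 and EC2, 1.01% in Immune cells and 61.3% in the 5 proximal tubule segment clusters.

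**Figure D1:**
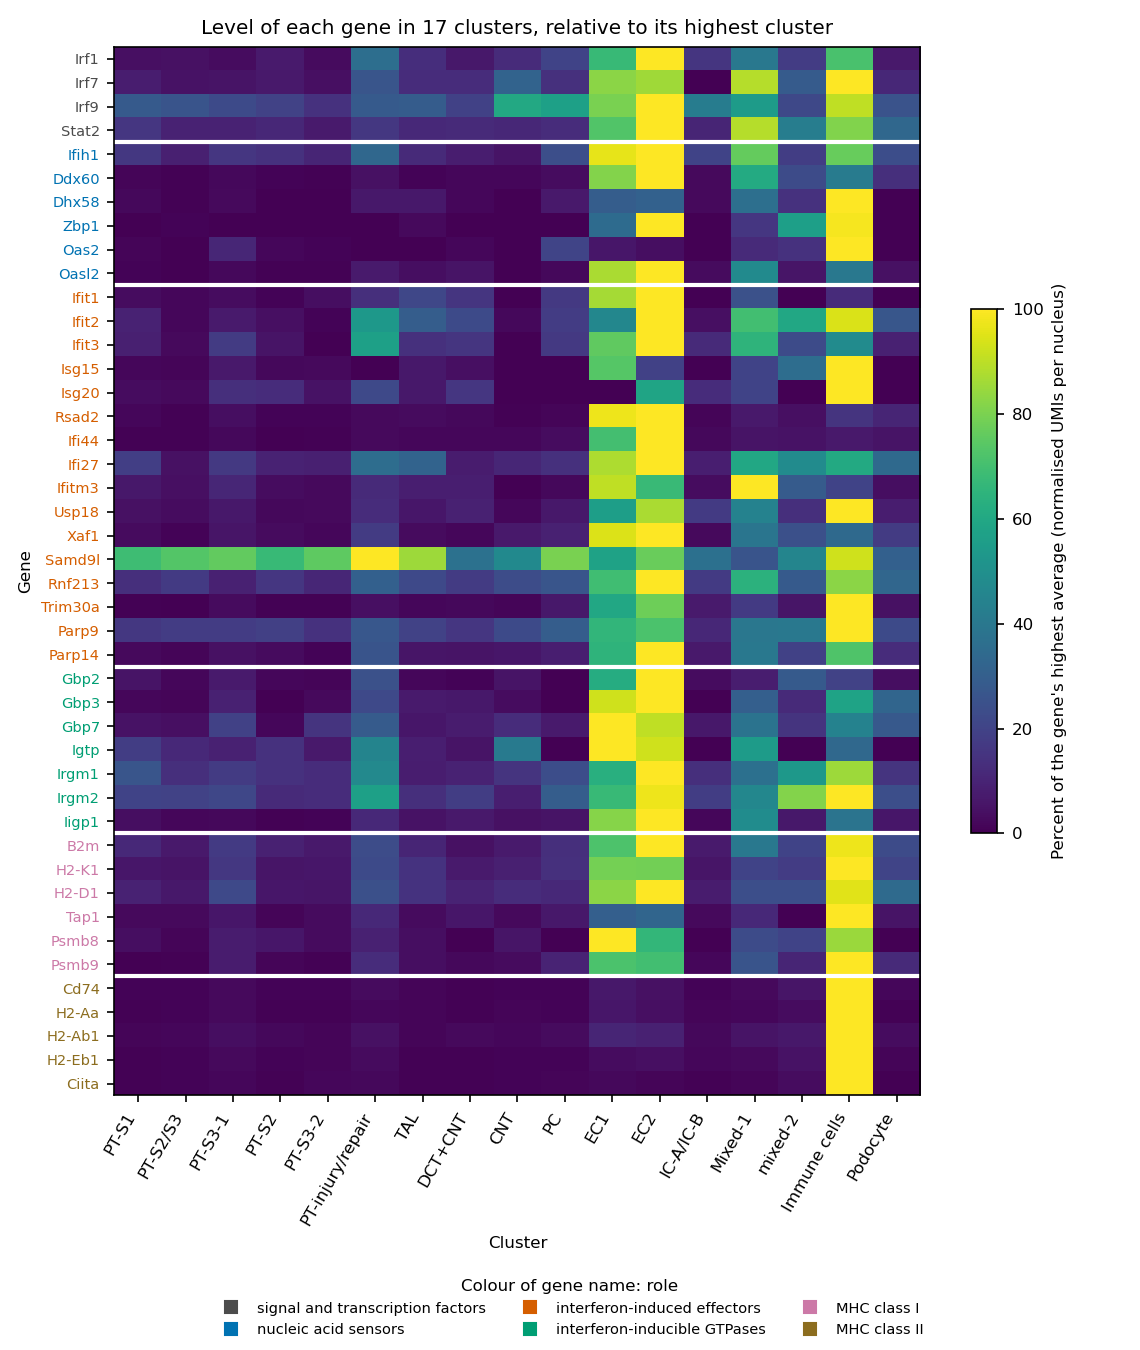
Level of each of the 44 listed genes (rows, name coloured by role) in 17 clusters (columns), as a percentage of that gene's highest average. Most rows of the upper roles are brightest in EC1 and EC2, all 5 MHC class II genes are brightest in Immune cells, and Samd9l is spread over all columns.

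A member counted as past the cluster threshold where the authors' deposited table gave, against all other nuclei, a p under 0.05 and a log2 fold change no smaller than 1. Of the 44 members, 32 were past it in EC2, where 5.84% of all genes were, and 23 in EC1, where 3.39% were. Immune cells had 16 members past it, against 4.25% of all genes, and Mixed-1 had 12, against 6.16%. PT-injury/repair had 3, which were Irf1, Ifit2 and Parp14, against 4.61%. At a log2 fold change of 2 or more that cluster had none, against 3.47%. The other 12 clusters had no member past the threshold. Among all genes, the share past it was 2.30% in PT-S1, 1.49% in PT-S2/S3, 0.327% in PT-S3-1, 0.740% in PT-S2 and 3.49% in PT-S3-2. It was 5.24% in TAL, 3.90% in DCT+CNT, 1.43% in CNT, 3.14% in PC, 3.27% in IC-A/IC-B, 0.0899% in mixed-2 and 1.74% in Podocyte. The clusters were drawn from these same nuclei, so these counts describe the clusters and are no test of them.

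Of the 4 transcription factor genes, 3 were highest in EC2. Stat2, which encodes the STAT specific to type I and III interferon, ranged from 0.0214 in PT-S3-2 through a median of 0.0378 to 0.299 in EC2, with Mixed-1 at 0.266 and Immune cells at 0.243. Its interval for EC2 over Mixed-1 held 1 (ratio 1.13, 0.875 to 1.45), so these neighbours in the order did not differ beyond counting error. Irf1, an early target of interferon gamma, ranged from 0.00549 in PT-S3-2 through 0.0235 to 0.179 in EC2, ahead of Immune cells at 0.127. Irf9, a DNA-binding interferon regulatory factor gene, ranged from 0.0104 in PT-S3-2 through 0.0208 to 0.0733 in EC2. It was the flattest of the 4, with endothelial nuclei 3.97-fold (2.86 to 5.43) above the 5 tubule segment clusters, while Irf1 was 18.8-fold (14.2 to 25.0) above them. Irf9 overlaps Rnf31 on the same strand, so its UMIs could include some of that gene. Irf7, the amplifier of type I interferon production, had 75 UMIs in all clusters together and its highest average, 0.0276, in Immune cells.

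Among the 6 nucleic acid sensors, 4 were highest in EC2. Ddx60, a helicase gene that promotes RNA sensing, ranged from 0.00135 in PT-S2/S3 through 0.00834 to 0.345 in EC2, with EC1 at 0.280 and Mixed-1 at 0.210. Endothelial nuclei stood 97.6-fold (68.6 to 143) above the tubule segments. Oasl2, which encodes a protein related to the 2'-5' oligoadenylate synthetases, ranged from 0 in CNT through 0.0104 to 0.276 in EC2, 152-fold (94.7 to 257) above the segments in endothelial nuclei. Ifih1, the gene of the cytosolic RNA sensor MDA5, was less uneven, ranging from 0.00884 in CNT through 0.0316 to 0.172 in EC2, and endothelial nuclei were 8.00-fold (6.41 to 9.95) above the segments. EC2 and EC1 did not differ beyond counting error for any of these 3 genes. Dhx58, a regulator of the RNA sensors, and Oas2 were highest in Immune cells at 0.0553 each, on 50 and 32 UMIs in all clusters, and Zbp1, a sensor of Z-form nucleic acid, had 27 UMIs, of which 59.3% lay in EC1 and EC2.

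Of the 16 effectors, Rsad2 and Ifi44 had the largest shares of their UMIs in endothelial nuclei, 69.1% and 74.9%. Rsad2, which encodes the antiviral enzyme viperin, averaged 0.998 in EC2 and 0.971 in EC1, against 0.149 in Immune cells, a median of 0.0256 over the 17 clusters and 0.00663 in CNT. Ifi44, an interferon-induced cytoplasmic protein gene, averaged 0.474 in EC2, 0.332 in EC1 and 0.0332 in Immune cells, with a median of 0.0105 and a lowest value of 0.000939 in PT-S2. EC2 alone held 51.2% of its UMIs, and it was the only member with over 50 percent in 1 cluster. Both genes were also higher in endothelial than in immune nuclei, Rsad2 by 6.61-fold (4.51 to 10.1) and Ifi44 by 12.6-fold (5.72 to 34.6). Rsad2 spans chr12:26442746-26456452 and Ifi44 chr3:151730922-151749960 (mm10, GENCODE M21), both on the minus strand.

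Samd9l and Rnf213 had the most UMIs of the effectors, 4227 and 2658. Rnf213, a large ubiquitin ligase gene linked to moyamoya vessel disease, ranged from 0.0617 in PT-S3-1 through 0.155 to 0.668 in EC2. Samd9l ranged from 0.0894 in Mixed-1 through 0.238 to 0.346 in PT-injury/repair, with Immune cells next at 0.321. The tubule segments held 64.4% of its UMIs, near the 61.3% they held of all UMIs. Its endothelial level was 0.971 times that of the segments (0.832 to 1.13). Samd9l was 1 of 3 members whose endothelial interval did not lie above 1, with Oas2 and Ciita.

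Most of the remaining effectors were also highest in EC2 or Immune cells. Ifit2, which encodes an RNA-binding antiviral protein, ranged from 0.00110 in PT-S3-2 through 0.0238 to 0.106 in EC2, with Immune cells at 0.0995. Parp14, an ADP-ribosyltransferase gene active in cytokine signalling, ranged from 0.00384 in PT-S3-2 through 0.0334 to 0.487 in EC2, followed by Immune cells at 0.354 and EC1 at 0.316. Parp14 overlaps Gm49730 on the same strand, so its UMIs could include some of that gene. Trim30a, a regulator of innate signalling, was highest in Immune cells (0.575), then EC2 (0.448), yet 50.7% of its UMIs lay in the endothelial clusters. Ifit1, Ifit3, Ifi27 and Xaf1 were highest in EC2, at 0.0345 to 0.162. Parp9, Usp18, Isg15 and Isg20 were highest in Immune cells, and Isg15, the ubiquitin-like modifier that serves as a standard response marker, was counted only 22 times and Isg20 19 times.

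Of the 7 interferon-inducible GTPases, which attack the membranes of vacuoles that hold microbes, 6 were highest in EC1 or EC2. The endothelial over immune interval lay above 1 for 3 of them (Gbp2, Gbp7 and Iigp1) and held 1 for the others, with Irgm1 at 0.997 (0.572 to 1.84). Iigp1, an immunity-related GTPase gene, ranged from 0.00188 in PT-S2 through 0.0189 to 0.358 in EC2. Gbp7, a guanylate-binding protein gene, ranged from 0.00375 in PT-S2 through 0.0316 to 0.212 in EC1, beside EC2 at 0.192. Irgm1, which guards the cell's own membranes from the other GTPases, ranged from 0.00828 in TAL through 0.0181 to 0.103 in EC2. Gbp2, Gbp3 and Igtp were also highest in EC1 or EC2, and Irgm2 was highest in Immune cells at 0.0774 with EC2 at 0.0754. The tubule segments held 48.2% of the UMIs of Irgm1 and 44.2% of those of Igtp, less than the 61.3% they held of all UMIs. Igtp and Irgm2 overlap on the same strand of chromosome 11, so the UMIs of either could include some of the other, and the same doubt applies to the closely related Gbp and Ifit genes. Gbp7 also overlaps Gm43802 on the same strand.

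Class I presentation genes were shared by immune and endothelial nuclei. H2-K1, a heavy chain gene, ranged from 0.0262 in PT-S2/S3 through 0.0718 to 0.486 in Immune cells, then EC1 at 0.384 and EC2 at 0.383. B2m, the light chain of every class I molecule, ranged from 0.0141 in DCT+CNT through 0.0416 to 0.312 in EC2, next to Immune cells at 0.304. H2-D1, the other heavy chain gene here, ranged from 0.0148 in PT-S3-2 through 0.0380 to 0.261 in EC2, with Immune cells at 0.249. For these 3 genes the endothelial over immune interval held 1. Tap1, which encodes a subunit of the peptide transporter, differed from them, at 0.171 in Immune cells against 0.0560 in EC2, and its endothelial over immune ratio was 0.318 (0.195 to 0.523). The immunoproteasome genes Psmb8 and Psmb9 had 56 and 98 UMIs. Psmb9 and Tap1 overlap on opposite strands and H2-K1 and H2-D1 are close copies, so their split of UMIs is uncertain.

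Class II genes separated the immune cluster from all others. Cd74, the invariant chain, averaged 0.945 in Immune cells, 0.0619 in EC1, a median of 0.0124 and 0.00617 in DCT+CNT. Ciita, the transactivator on which class II transcription depends, averaged 0.912 in Immune cells, 0.0316 in mixed-2, a median of 0.0114 and 0.00312 in Podocyte. The beta chain gene H2-Eb1 averaged 0.823 in Immune cells and at most 0.0395 elsewhere, H2-Aa 0.680 and at most 0.0423, and H2-Ab1 0.376 and at most 0.0391. The ratio of the highest cluster to the next ran from 9.61 (5.16 to 19.5) for H2-Ab1 to 28.9 (11.1 to 107) for Ciita. Outside Immune cells there were 1.69 (mixed-2) to 20.5 (PT-S3-2) class II UMIs for each UMI of Ptprc, against 1.09 in Immune cells. The ratios outside Immune cells rest on 15 to 151 class II and 2 to 21 Ptprc UMIs per cluster. As counted, each was above that of Immune cells, but no interval was computed. Whether the lower ones, such as that of mixed-2, differ beyond counting error was not tested.

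**Figure D2:**
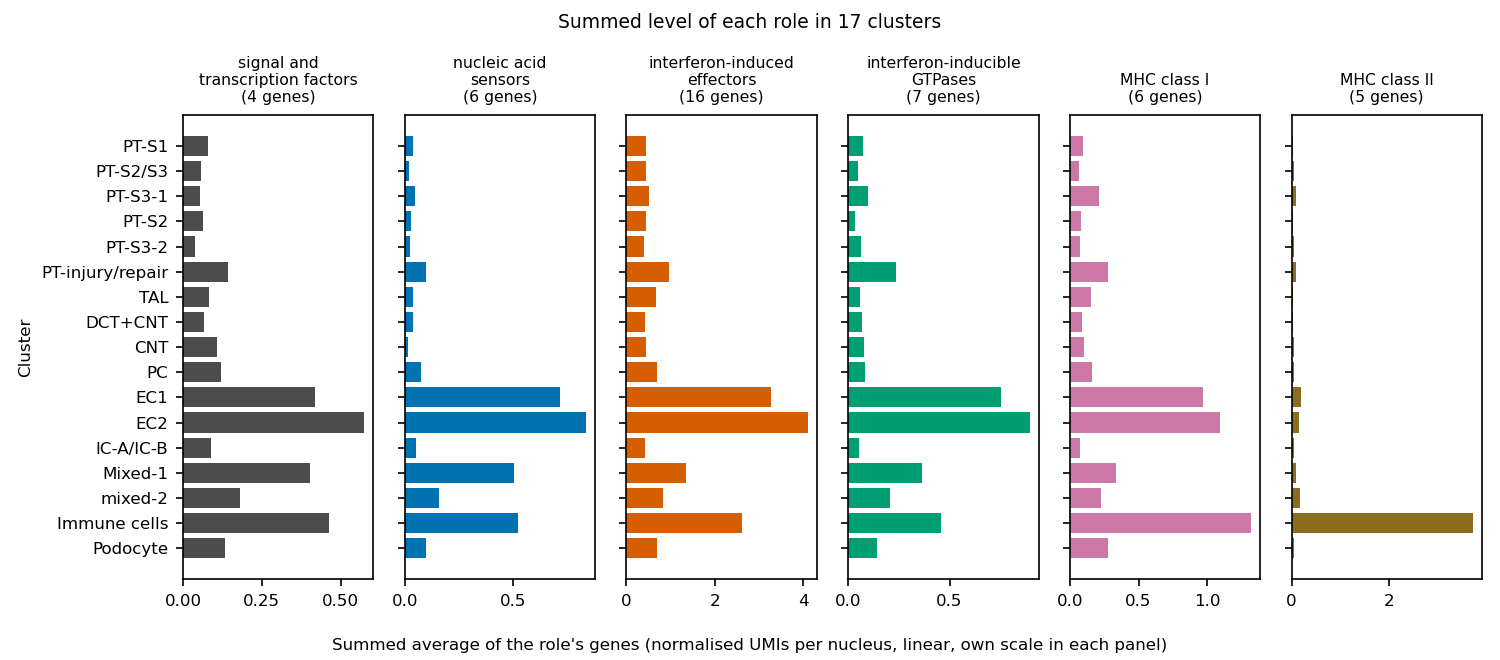
Summed average of the genes of each role (horizontal axis, normalised UMIs per nucleus, linear from 0, own scale per panel) in 17 clusters. EC2 has the longest bar for the first 4 roles, with effectors at 4.11, Immune cells has it for MHC class I (1.32) and class II (3.74), and PT-injury/repair stands above the 5 tubule segment clusters in every panel.

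Summed by role, EC2 ranked highest for transcription factors (0.575), sensors (0.840), effectors (4.11) and GTPases (0.894), ahead of Immune cells at 0.464, 0.525, 2.61 and 0.459. Immune cells ranked highest for class I, at 1.32 against 1.09 in EC2, and for class II, at 3.74 against 0.189 in EC1, the next highest. Mixed-1, in which fibroblast and mesangium markers summed to 3.95, ranked 4 for the first 5 of the 6 roles. Its endothelial markers summed to 2.75, 10.8% of their level in EC1 and EC2 together, with single markers at up to 59.4%. Its transcription factors stood at 78.4% of their endothelial level, sensors at 63.9%, class II at 54.8%, GTPases at 43.5%, effectors at 36.0% and class I at 32.1%.

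Endothelial nuclei were then compared with 2 other populations. Against the 5 tubule segment clusters pooled, 41 of 44 members had an interval above 1, where 24.3% of all genes did, and none had one below, where 15.0% did. Against Immune cells, 10 members lay above 1, where 6.38% of all genes did: Ddx60, Oasl2, Ifit1, Rsad2, Ifi44, Ifitm3, Xaf1, Gbp2, Gbp7 and Iigp1. A further 9 lay below 1, where 11.5% of all genes did: the 5 class II genes, Tap1, Trim30a, Dhx58 and Oas2. Of the 10 that were more endothelial, 5 were effectors, 3 GTPases and 2 sensors. Shares of all genes, here and in the later comparisons by interval, are not matched for counts. Of the 24468 genes 15030 had at least 50 UMIs, while 4 of the 44 members had fewer. Intervals of sparsely counted genes are wide and seldom exclude 1.

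Within the endothelium, EC2 was higher than EC1 for 7 members, where 2.90% of all genes had such an interval, and lower for none, where 5.05% did. The largest ratio among the 7 was that of Ifit2, with 2.16 (1.19 to 4.15). Parp14 followed with 1.54 (1.21 to 1.98), Rnf213 with 1.44 (1.18 to 1.77) and Ifi44 with 1.43 (1.12 to 1.82). B2m, Stat2 and Trim30a had ratios of 1.39, 1.37 and 1.30. For Rsad2, at 1.03 (0.886 to 1.19), the interval held 1. The summed endothelial markers were also higher in EC2, at 28.3 against 21.2, and their part in these ratios was not tested.

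The members with a response element core in the promoter were compared with those without one. The 16 with the core had a median of 30.4% of their UMIs in EC1 and EC2 (range 15.3 to 69.1%), and the 17 without had 24.0% (4.38 to 74.9%). The ranges overlapped almost entirely, and Ifi44 and Oasl2, 2 of the steepest genes, had no core in the window.

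PT-injury/repair, a cluster of damaged tubule nuclei, carried more interferon-response transcript than the tubule segments. Its 10 injured tubule markers summed to 23.2 times (22.2 to 24.3) their level in the 5 segment clusters, and its 10 proximal tubule markers to 0.137 times (0.133 to 0.142). The 44 members summed to 1.82 against 0.712, a ratio of 2.56 (2.42 to 2.71). Of the 44, 38 had an interval above 1 against the pooled segments, where 24.5% of all genes did, and none had one below, where 10.8% did. Against whichever segment cluster was highest for that gene, 15 members lay above 1, where 12.2% of all genes did, and none below, where 18.0% did.

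The 3 members past the threshold there stood above every segment cluster. Parp14 averaged 0.126 in PT-injury/repair and 0.00384 to 0.0226 in the 5 segment clusters. Its ratio to the pooled segments was 12.6 (9.53 to 16.6), and its log2 fold change against all other nuclei was 1.59 (p = 0.0199) in the authors' deposited table. Ifit2 averaged 0.0562, which was 5.61 times (3.42 to 9.39) the highest segment cluster and 12.4 times (8.11 to 18.8) the segments pooled, with a log2 fold change of 1.88 (p = 0.00652) in the authors' deposited table. Irf1 averaged 0.0647 against 0.00549 to 0.0127, a ratio of 7.83 (5.47 to 11.1), with 1.62 (p = 0.0322) in the authors' deposited table.

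**Figure D3:**
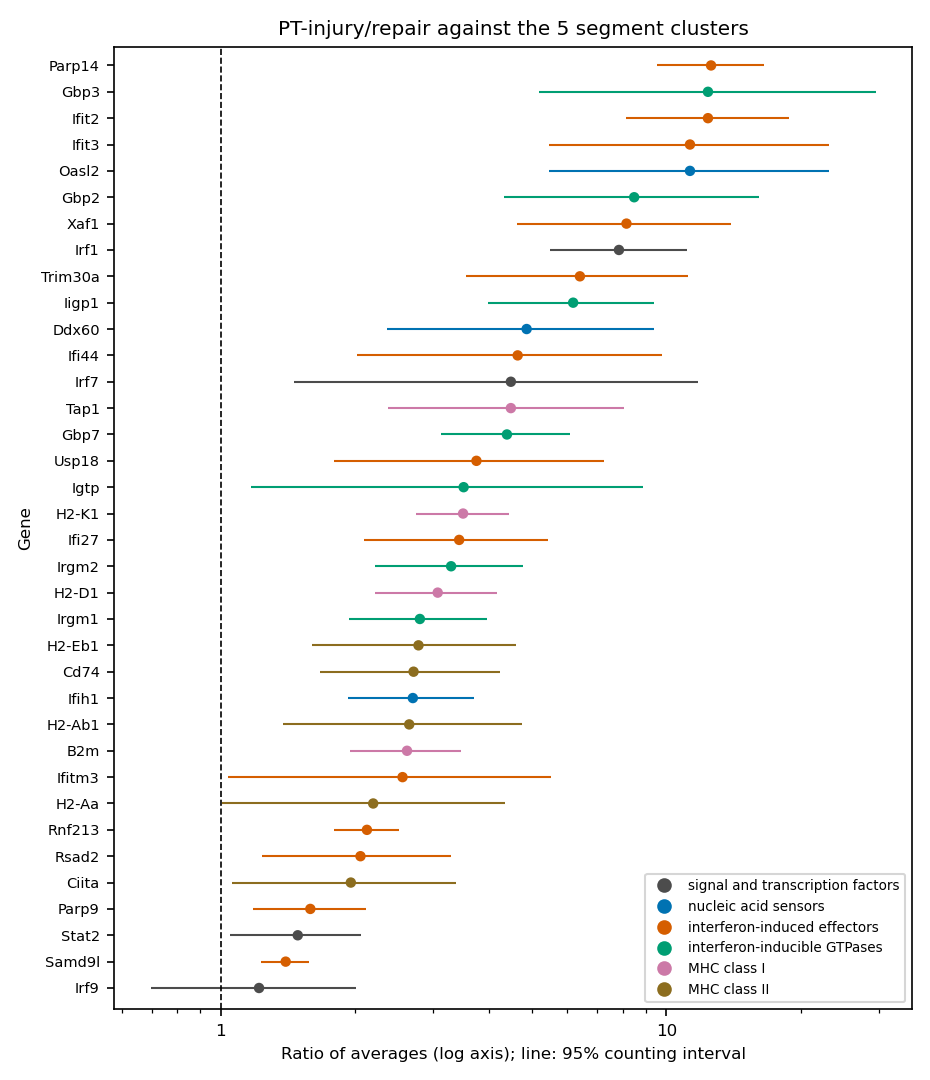
Ratio of the average in PT-injury/repair to that in the 5 tubule segment clusters pooled (log axis, points) with 95% counting intervals (lines), for the 36 members with at least 20 UMIs in these clusters together and at least 1 in PT-injury/repair, coloured by role. Parp14 is highest at 12.6, and Irf9 is the lowest at 1.22, with an interval that holds 1 (0.697 to 2.01).

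By role, the summed ratio was 4.17 (3.53 to 4.90) for the GTPases, 3.23 (2.78 to 3.73) for class I, 2.47 (1.93 to 3.13) for class II and 2.37 (1.93 to 2.90) for the transcription factors. The sensors reached 3.49 (2.69 to 4.49), and 6.15 (3.91 to 9.47) without Ifih1, which supplied 59.5% of their UMIs there, so the order of the roles depends on that gene. Effectors reached 2.20 (2.04 to 2.37), and 3.22 (2.92 to 3.54) without Samd9l, which supplied 35.6% of their UMIs there. The other 12 members above the highest segment cluster were Ifih1, Oasl2, Ifit3, Ifi27, Xaf1, Samd9l, Rnf213, Parp9, Gbp2, Irgm1, Irgm2 and Iigp1. No class I or class II gene was among the 15, but that rests on PT-S3-1. Without that cluster, 27 members lay above the highest remaining segment cluster, where 15.8% of all genes did, among them all of the 15, 5 class I genes and the class II gene Cd74. In both classes the highest segment cluster was PT-S3-1 for every gene, where H2-K1 stood at 0.0797 against 0.109 in PT-injury/repair, a ratio of 1.36 (0.959 to 1.95).

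Markers of most other cell types were also higher in PT-injury/repair than in the segments. Summed ratios were 2.79 (2.25 to 3.44) for principal cell markers, 2.14 (1.79 to 2.54) for intercalated and 1.99 (1.79 to 2.21) for podocyte. They were 1.85 (1.74 to 1.97) for connecting tubule, 1.60 (1.50 to 1.70) for thick ascending limb and 1.12 (1.07 to 1.18) for distal convoluted tubule markers. The 12 endothelial markers summed to 0.653 against 0.200 (ratio 3.26, 2.96 to 3.58), and none was at 0. In PT-injury/repair these markers stood at a median of 2.75% of their endothelial level, with a highest value of 4.26%. The 25 members that were highest in EC1 or EC2 stood at a median of 26.4% of theirs, and 22 of the 25 exceeded the highest marker. That count was not particular to this cluster, since 22 did so in PT-S1, 20 in PT-S2/S3, 17 in PT-S2 and in PT-S3-2 and 13 in PT-S3-1, where the members' medians were 2.28% to 9.28% and the markers' 0.556% to 3.45%. Rsad2 (2.60%) and Ifi44 (2.92%) were within the range of the markers.

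The leukocyte lists gave smaller levels. The 15 macrophage and dendritic cell markers summed to 0.137 against 0.0833, with 3 of them at 0, and 59.8% of these UMIs were of Csf1r. Without Csf1r they stood at 0.815% of their level in Immune cells, while class II stood at 2.68% and class I at 21.1%. The T and NK cell markers had a ratio of 9.33 (7.39 to 11.7), but 83.7% of those UMIs were of Skap1, and without it the ratio was 2.94 (1.74 to 4.75), with 4 of 10 markers at 0. All 7 B cell markers were at 0 UMIs, which allows a summed average of up to 0.00366. The fibroblast and mesangium markers had a ratio of 5.14 (4.05 to 6.49), and the part of these cells in the members' levels was not tested.

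In the pooled proximal tubule nuclei, treated and untreated, 0 of the 43 listed members were called, at a p under 0.05 as the authors' deposited table gives it, where 2.13% of all genes were (0.995% higher and 1.14% lower in Cis9w). The lowest p was 0.197, for Parp14, and 36 of the 43 were listed with a p of 1, as were 82.4% of all genes. An expression floor was set at 0.0154, the median gene's mean over the pools, and 15 members stood at or above it, where 3.29% of all genes were called. Their median log2 fold change, Cis9w over CT9w, was 0.06 in the authors' deposited table, against 0.03 for the 10656 genes at the floor. A different share of nuclei of some kind and a different level per nucleus cannot be told apart in these pools.

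**Figure D4:**
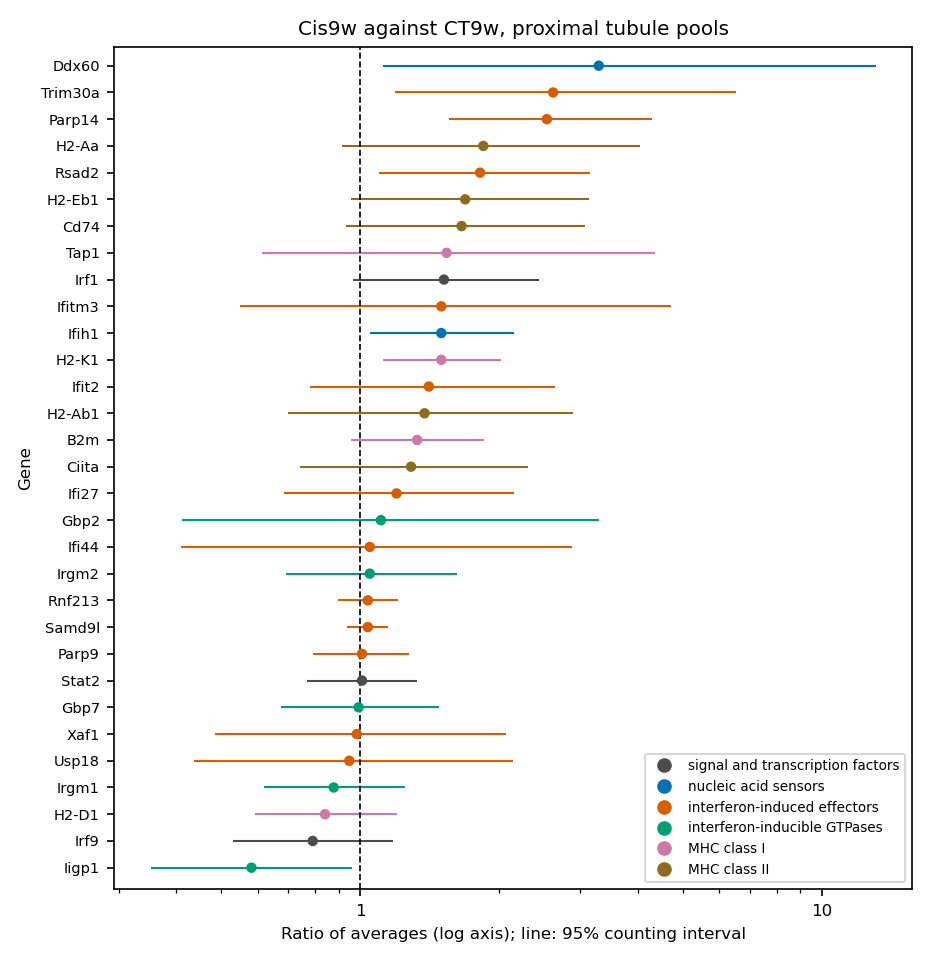
Ratio of the Cis9w average to the CT9w average in proximal tubule pools (log axis, points) with 95% counting intervals (lines), for the 31 members with at least 20 UMIs in both pools together, coloured by role. Ddx60 is highest at 3.29 with a wide interval (1.12 to 13.1), Iigp1 is lowest at 0.582, and the well-counted Samd9l and Rnf213 both lie at 1.04.

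The counting intervals nonetheless lay above 1 for 6 members, where 12.4% of all genes did, and below 1 for 1, where 9.58% did. The share among the members was thus close to or under that among all genes. Parp14 went from 21 UMIs in CT9w (average 0.0115) to 89 in Cis9w (0.0291), a ratio of 2.54 (1.56 to 4.30). Trim30a went from 8 UMIs (0.00437) to 35 (0.0114), a ratio of 2.62 (1.19 to 6.54). Ddx60 went from 4 UMIs (0.00218) to 22 (0.00719), a ratio of 3.29. These 3 were the members that had 20 UMIs or more and a log2 fold change no smaller than 1, whatever the p, where 5.03% of all genes differed by as much and 3.29% were that much higher in the authors' deposited table.

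Rsad2 went from 21 UMIs (0.0115) to 64 (0.0209), a ratio of 1.82 (1.10 to 3.15). Ifih1 went from 46 (0.0251) to 115 (0.0376), a ratio of 1.50 (1.05 to 2.16), and H2-K1 from 67 (0.0366) to 168 (0.0549), also 1.50 (1.12 to 2.02). Iigp1 was the member below 1, counted 35 times in CT9w (0.0191) and 34 times in Cis9w (0.0111), for a ratio of 0.582 (0.352 to 0.960). None of these 7 passed the deposited p. Summed endothelial markers were 1.48 times (1.32 to 1.66) as high in Cis9w, from 0.229 to 0.339 with none of the 12 at 0, and injured tubule markers 5.78 times (5.25 to 6.37), from 0.255 to 1.48. Rsad2, Ddx60 and Trim30a each had over 50 percent of their UMIs in EC1 and EC2, though Trim30a had its highest average in Immune cells. In PT-injury/repair all 7 had an interval above 1 against the pooled tubule segments, with ratios from 2.06 (Rsad2) to 12.6 (Parp14). Iigp1, which was lower in Cis9w, had a ratio of 6.18 in that cluster and 46.3% of its UMIs in EC1 and EC2. Ifi44, with 74.9% of its UMIs in EC1 and EC2, had a pool ratio of 1.05 (0.410 to 2.88). The part of endothelial, immune and injured tubule nuclei in these pool ratios was not tested.

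For the best-counted members the intervals were narrow and held 1. Samd9l had 620 UMIs in CT9w (0.338) and 1073 in Cis9w (0.351), giving 1.04 (0.938 to 1.15). Rnf213 had 275 (0.150) and 479 (0.157), also 1.04 (0.897 to 1.21). Parp9, the partner of a ubiquitin ligase in antiviral signalling, had 113 (0.0617) and 190 (0.0621), a ratio of 1.01 (0.793 to 1.28). An interval that holds 1 does not show that the levels were equal.

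For the 4 transcription factor genes, too, each interval held 1. Stat2 had 86 UMIs in CT9w (0.0469) and 145 in Cis9w (0.0474), giving 1.01 (0.768 to 1.33). Irf1 had 28 (0.0153) and 71 (0.0232), a ratio of 1.52 (0.968 to 2.44), and Irf9 had 47 (0.0257) and 62 (0.0203), a ratio of 0.790 (0.532 to 1.18). The 4 genes together had a ratio of 1.02 (0.836 to 1.24).

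Among the GTPases at the floor, Gbp7 had 44 UMIs in CT9w (0.0240) and 73 in Cis9w (0.0239), giving 0.993 (0.674 to 1.48). Irgm1 had 58 (0.0317) and 85 (0.0278), a ratio of 0.877 (0.621 to 1.25), and Irgm2 had 37 (0.0202) and 65 (0.0212), a ratio of 1.05 (0.692 to 1.62). The 7 GTPases together had a ratio of 0.920 (0.763 to 1.11).

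Antigen presentation gave sums above 1. In class I, B2m had 55 UMIs in CT9w (0.0300) and 122 in Cis9w (0.0399), giving 1.33 (0.958 to 1.86), and H2-D1 had 57 (0.0311) and 80 (0.0261), a ratio of 0.840 (0.591 to 1.20). The 6 class I genes summed to a ratio of 1.24 (1.04 to 1.49), but without H2-K1 to 1.11 (0.885 to 1.39). The 5 class II genes, all under the floor, had log2 fold changes of 0.33 (Ciita) to 0.80 (H2-Aa) in the authors' deposited table. Their sum went from 78 UMIs to 202, a ratio of 1.55 (1.19 to 2.04), though no class II gene had an interval above 1 by itself. Ptprc went from 10 UMIs to 48 in the same pools, a ratio of 2.87 (1.44 to 6.37). The macrophage and dendritic cell markers summed to 0.133 in CT9w and 0.0954 in Cis9w, where Csf1r supplied 59.3% of the UMIs. Without Csf1r their ratio was 1.27 (0.946 to 1.71). Flt3 was at 0 in CT9w and Tyrobp at 0 in Cis9w, and the part of immune nuclei in the class II sum was not tested.

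Over all 43 members the summed ratio was 1.12 (1.06 to 1.19), with 32.2% of the UMIs from Samd9l. Sensors had the largest ratio of any role, 1.65 (1.21 to 2.28), resting on 56 UMIs in CT9w and 154 in Cis9w, and 76.7% of these were of Ifih1. Effectors had 1.10 (1.02 to 1.18). The members not given singly had 1 to 20 UMIs in CT9w and log2 fold changes of -1.15 (Isg15) to 1.43 (Gbp3, 1 UMI against 8) in the authors' deposited table. Per kilobase of gene span, a rough scale for comparing genes in nuclear RNA, UMIs over the 17 clusters ran from 1.64 for Oas2 to 259 for H2-K1, with B2m and Samd9l both at 155.

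Other genes of the same pathways came from a list of 118 symbols, of which 107 were in the cluster table and 102 in the pools. Of the 102, 0 were called in either direction by the p of the authors' deposited table. Intervals lay above 1 for 18 and below 1 for 4, against 12.4% and 9.58% of all genes. Past the cluster threshold were 42 of the 107 in EC2 (39.3%, against 5.84% of all genes), 24 in EC1 (22.4%, against 3.39%), 35 in Immune cells (32.7%, against 4.25%) and 17 in Mixed-1 (15.9%, against 6.16%). PT-injury/repair and TAL had 4 each (3.74%, against 4.61% and 5.24%), Podocyte 3 (2.80%, against 1.74%), PC, IC-A/IC-B and PT-S3-2 1 each, and the other 7 clusters none. Of the receptor genes, Ifnar1 went from 122 UMIs (0.0666) to 276 (0.0902) in the pools, a ratio of 1.35 (1.09 to 1.69), and its partner Ifnar2 from 75 (0.0409) to 179 (0.0585), 1.43 (1.09 to 1.90). Il10rb, a subunit of the type III interferon receptor, went from 89 (0.0486) to 240 (0.0784), 1.61 (1.26 to 2.08). The 7 ligand and receptor genes in the pools summed to a ratio of 1.38 (1.24 to 1.54), and Ifnk, at 14 and 18 UMIs, was the only ligand gene among them.

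In the clusters, the receptor genes Ifnar2 and Il10rb were highest in EC2, at 0.642 and 0.465, and Ifnar1 in Immune cells at 0.315. The signalling genes Jak1, a receptor kinase, Pias1, an inhibitor of STAT signalling, and Irf2, a repressor related to Irf1, were highest in Immune cells at 0.812 to 0.884, and their lowest clusters still reached 0.188 to 0.356. Upstream of interferon, the kinase gene Tbk1 (0.271) and the ubiquitin ligase gene Trim25 (0.179) were highest in EC2, and the adaptor gene Mavs in PC (0.206). The interferon-induced genes Sp100, Herc6 and Ifi203 were highest in EC2, at 1.52, 0.618 and 0.733. The class II pathway genes H2-DMa, Ctss, a lysosomal protease gene, and Cd86, a costimulator, were highest in Immune cells, at 0.0718, 0.724 and 0.680. Among the 3 genes of each list with the highest mean level, the receptor genes aside, pool intervals excluded 1 for Herc6, Canx and Pdia3. Herc6 went from 79 UMIs (0.0431) to 88 (0.0288), a ratio of 0.667 (0.487 to 0.915). The class I pathway genes Canx and Pdia3 were higher in Cis9w, with ratios of 1.40 (1.28 to 1.53) and 1.52 (1.34 to 1.73).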

How the data were processed

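The labels' protocols describe droplet 3' libraries of single nuclei. The submitters' processing notes name Cell Ranger 5.0.1 and mm10. Not given in the sources used here are the clustering, how nuclei were filtered, what was done about doublets and free RNA, and the test behind the p-values or its adjustment. Per the file headers, the authors deposited averages, p-values and log2 fold changes by gene. Each average is a signal in normalised UMIs per nucleus, pooled by the authors over nuclei and summing to 2797 per pool and 2008 per cluster.

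UMI counts were recovered from the deposited averages, which are whole multiples of 1 step per column (within 0.1 UMI for at least 99.995% of genes). Ratios of these sums were given 95% Clopper-Pearson intervals. A call was a deposited p under 0.05. No test across samples was possible, and levels were not compared between the tables. Recovery and intervals were tested on simulated data. Positions are from GENCODE M21 and promoters from RefSeq (GRCm38.p6). Python 3.11.15, pandas 2.3.3, NumPy 2.4.6, SciPy 1.17.1 and matplotlib 3.10.9 were used.

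The members and lists were chosen with earlier results of these data known. Every member is accounted for. Pool values are printed for members at the floor or with an interval that excludes 1. Cluster values are printed for the 3 best-counted members of each role, for members with over 50 percent of UMIs in 1 cluster and for those past the threshold in a tubule cluster. Of the other pathway genes the rule takes the 3 with the highest mean level per list. Other members and genes named were chosen after their values were seen.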

Additional observations from a re-analysis of the deposited data

How the results depend on the processing

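Of 108 alternative values (another p threshold, fold threshold or floor, centring on the median of all genes, recomputed fold changes, means, sums without the best-counted gene, and clusters left out), 100 stayed within the counting interval of the value they replace, or within 1.5 times for a count, and 8 moved. Some of those 100 could not move. In the 12 clusters with no member past the threshold, a higher fold threshold or a UMI minimum could only give 0. The stricter p in the pools could likewise only give 0. Elsewhere within the 100, values near 0 changed sign. The median log2 fold change of the transcription factors went from 0.01 to -0.17 without a floor and -0.03 when centred, their summed ratio from 1.02 to 0.993 when centred, and the GTPase median from -0.02 to 0.04 without a floor. The class I ratio of 1.24 (1.04 to 1.49) became 1.11 (0.885 to 1.39) without H2-K1, so its interval no longer excluded 1. Called by an absolute log2 fold change of at least 1 with at least 20 UMIs, 3 members replaced 0 in the pools. With a mean in place of a median, the log2 fold change at the floor was 0.24 over all members (median 0.06) and 0.45 for effectors (median 0.06). The sensor ratio was 2.34 without Ifih1. At log2 fold changes of 2 or more, the 3 members past the threshold in PT-injury/repair became 0. Against the highest segment cluster, 15 members there replaced 38. By mean percent of each gene's highest average, EC2 ranked 2 for sensors, behind Immune cells. Leaving PT-S3-1 out of the segments, chosen after seeing the data, left the same 38 members above the pooled segments but raised those above the highest segment cluster from 15 to 27. No paired analysis was possible because the columns carry no replicate, and for the same reason no replicate could be left out. No class II gene was at the floor, so no median was given. An average of 3 UMIs is 0.00164 in CT9w, 0.000981 in Cis9w and up to 0.0237 in a cluster (mixed-2), which limits what can be said of genes such as Isg15, Isg20, Zbp1 and Oas2. The number of nuclei per pool is not given.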

Other observations

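The 4 other pathway genes past the threshold in PT-injury/repair, chosen here after their values were seen, are 3.74% of the 107, below the 4.61% of all genes past it. Cxcl10, a chemokine gene induced by interferon gamma, was highest there, at 0.0403 (33 UMIs) against 0.00236 in the 5 segment clusters pooled, a ratio of 17.1 (9.90 to 29.7), and the next cluster was Immune cells at 0.0111. Nlrc5, the transactivator of class I genes, was at 0.0745 against 0.00572, a ratio of 13.0 (9.00 to 18.8), although it was highest in Immune cells at 0.558. Rtp4, an interferon-induced gene, was at 0.0305 against 0.00309, a ratio of 9.89 (5.66 to 17.1), and in the pools it went from 4 UMIs in CT9w to 35 in Cis9w (ratio 5.24, 1.87 to 20.3), and the authors' deposited table gave p = 0.0952. Ikbke, a kinase gene upstream of interferon production, was at 0.0598 against 0.0155, a ratio of 3.85 (2.75 to 5.32). Of the 107, 53 had an interval above 1 against the segments, where 24.5% of all genes did. Ifng itself had 1 UMI in all 17 clusters.

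Of the 107, 38 were highest in EC1 or EC2, 45 in Immune cells and 24 elsewhere, 8 of these in Mixed-1. The nonclassical class I genes H2-Q7 and H2-Q6 were highest in Podocyte, at 0.403 and 0.200, with Immune cells next at 0.144 and 0.160, and their close sequence similarity makes the split between them uncertain. Ifnlr1, the specific subunit of the type III interferon receptor, was highest in IC-A/IC-B at 0.0765, with PC next at 0.0378. Calr, Canx and Pdia3, chaperones of class I folding in the endoplasmic reticulum, were counted in every cluster. Calr ranged from 0.0472 in PT-S3-2 to 0.130 in Mixed-1, Canx from 0.209 in EC2 to 0.451 in CNT and Pdia3 from 0.119 in DCT+CNT to 0.238 in Immune cells. In the pools Canx went from 700 UMIs to 1633 (ratio 1.40, 1.28 to 1.53) and Pdia3 from 336 to 853 (1.52, 1.34 to 1.73), with p-values of 0.751 and 0.475 in the authors' deposited table.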
